A study of Homo sapiens with 6 samples.

Results

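The 10 genes described here are the 4 ERBB receptors (EGFR, ERBB2, ERBB3 and ERBB4) and 6 of their EGF-family ligands (AREG, EREG, HBEGF, TGFA, EGF and BTC), taken by symbol from a table of 20824 genes. All 10 were in the table, and 9 passed the filter on low values and were tested. ERBB4, at a mean under 0.5 RPKM, did not. RNA-Seq was done on 21NT cells, an established breast line that the study uses as a model of non-invasive disease, after stable transfection with the empty pcDNA3.1 vector (EV), with TBX3iso1 or with TBX3iso2, 2 libraries for each of the 3 lines. TBX3 is a T-box transcription factor, and its isoforms differ by a spliced insert in the DNA-binding domain. Each line is a pool of G418-resistant clones, and nothing in the sources says whether its 2 libraries come from separate cultures, so p-values may cover technical spread only. Each isoform has only its own pool, and the lines also differ in TBX3 level. Isoform, TBX3 level and pool therefore cannot be told apart. Below, a change with an isoform or between the isoforms means one between these lines. All 3 lines grew in the same medium with 12.5 ng/mL EGF, 1 µg/mL insulin, 2.8 µM hydrocortisone and 10% fetal bovine serum, so an EGFR ligand was supplied to every library. No cells without added EGF were compared. In bulk RNA, fewer cells that express a gene and less of its RNA per cell cannot be told apart.

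EGFR (ERBB1), ERBB2, ERBB3 and ERBB4 are receptor tyrosine kinases that signal as dimers. EGFR binds EGF, TGFA, AREG, EREG, HBEGF, BTC and epigen (EPGN), ERBB2 has no known ligand and acts as the preferred dimer partner, ERBB3 binds neuregulins and has little kinase activity of its own, and ERBB4 binds neuregulins and some EGFR ligands. The ligands are made as membrane-bound precursors that ADAM proteases shed. In mammary epithelium amphiregulin (AREG) drives duct growth, and ERBB2 is amplified in a subset of breast cancers.

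The libraries held 43176600 to 54512400 alignments each. Levels are RPKM, which corrects a gene's reads for its length and for library depth. The table gives no gene counts, so the spread between the 2 libraries stands in for counting error. TBX3 measured 8.24 and 8.52 RPKM in EV, 11.4 and 13.1 RPKM in TBX3iso1 and 15.5 and 17.5 RPKM in TBX3iso2, with no overlap between the lines. The epithelial markers KRT8 (567 to 728 RPKM as line means) and EPCAM (171 to 221 RPKM) were high in all lines, while KRT14 and PGR were at or near 0. Of 14 mammary epithelial markers 12 were tested, and 1 was called higher and 4 lower with each isoform. These 41.7% called stand beside 21.5% of all genes tested in TBX3iso1 and 21.2% in TBX3iso2. KRT5 rose with both isoforms, from 2.83 RPKM in EV to 6.64 RPKM in TBX3iso1 and 6.87 RPKM in TBX3iso2. TP63 (log2 -3.16 and -3.11) and ESR1 (-1.03 and -0.79) fell with both, CDH1 (-0.70) and FOXA1 (-0.86) fell with TBX3iso1, and KRT19 (-0.72) and GATA3 (-1.07) fell with TBX3iso2. Their sum ranged from 2843 to 2938 RPKM in EV, 2385 to 2641 RPKM in TBX3iso1 and 2787 to 3158 RPKM in TBX3iso2. Of the markers of cell types outside the epithelium, 6 of 7 fibroblast, 4 of 6 leukocyte and 3 of 4 endothelial genes had means under 0.5 RPKM. Those above it were COL1A1, CD68, CD14 and PECAM1. The summed fibroblast markers ranged from 4.599 to 4.86 RPKM in EV and from 7.16 to 8.72 RPKM in the TBX3 lines, the leukocyte markers from 52.7 to 55.01 and from 36.3 to 36.9 RPKM, and the endothelial markers from 7.37 to 7.73 and from 1.26 to 1.46 RPKM. Among the genes under 0.5 RPKM, PTPRC (leukocyte list) and THY1 (fibroblast list) were at most 0.0304 RPKM in any library. The part of these differences in the results was not tested. In the second library of both TBX3 lines longer transcripts were lower than in the first, with a median log2 difference that ran from 0.19 in the shortest to -0.18 in the longest of 10 length classes for TBX3iso1 and from 0.21 to -0.28 for TBX3iso2, against 0.00 to -0.04 in EV.

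A gene was called different where limma gave an adjusted p under 0.05 and a fold over 1.5 (0.585 on the log2 scale). Of the 9 members tested, 1 was called higher and 2 lower in TBX3iso1 than in EV, beside 21.5% of all 12805 genes tested called in either direction, 7.46% higher and 14.1% lower. For TBX3iso2 against EV, 3 members were higher and 2 lower, beside 21.2% of all genes, 8.94% higher and 12.3% lower. Between the isoforms, 4 members were higher in TBX3iso2 than in TBX3iso1 and 0 lower, beside 6.29% of all genes called, 3.47% higher and 2.82% lower. The libraries of the lines compared did not overlap for 8 of the 9 members in TBX3iso1 against EV (78.4% of all genes), 7 in TBX3iso2 against EV (74.7%) and 7 between the isoforms (53.5%). With 9 genes, 1 call moves these shares a long way. The comparisons with EV share the same EV libraries. Of all genes called, 955 were higher and 1802 lower in TBX3iso1, but 703 and 2127 after rescaling each library to a common total, 1268 and 1306 after quantile normalization, 1263 and 1449 after median-ratio scaling, and 1227 and 1452 after centring within classes of transcript length. In TBX3iso2 1145 were higher and 1575 lower than in EV, but 869 and 1847 after rescaling and 1332 and 1330 after quantile normalization. Between the isoforms 444 were higher and 361 lower, but 351 and 440 after median-ratio scaling, 348 and 434 after quantile normalization and 385 and 478 after length centring.

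**Figure D1:**
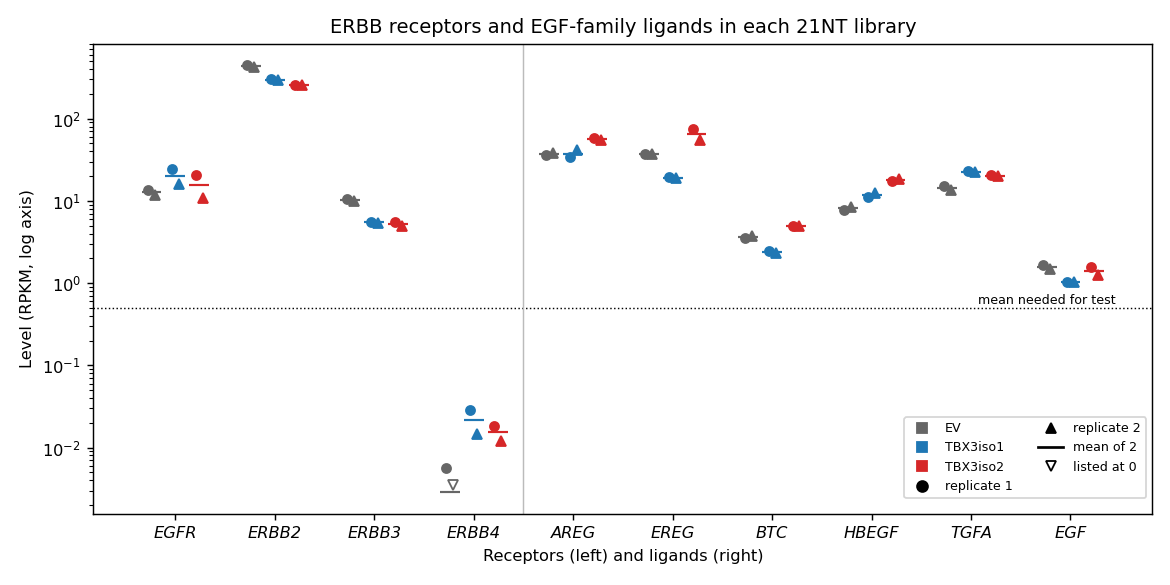
Level of each receptor (left of the grey line) and ligand (right) in each library, in RPKM on a log axis. Circles and triangles are replicates 1 and 2, short bars the mean of 2, and the open symbol the library where ERBB4 was listed at 0. ERBB2 lay far above every other member in all 6 libraries, ERBB4 lay far under the mean of 0.5 RPKM needed for a test (dotted line), and EREG was lowest in TBX3iso1 and highest in TBX3iso2.

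Among the receptors, ERBB2 dominated. In EV its mean of 434 ± 14.8 RPKM (SD, n = 2) was the 79th highest of the 20824 genes, and it made up 95.0% ± 0.169 of the summed RPKM of the 4 receptors. EGFR followed at 2.79% ± 0.155 and ERBB3 at 2.24% ± 0.0134. The summed level of the 4 receptors was 457 ± 16.4 RPKM in EV, 324 ± 8.34 RPKM in TBX3iso1 and 279 ± 10.1 RPKM in TBX3iso2. The ERBB2 share of that sum was 92.1% ± 1.65 in TBX3iso1 and 92.5% ± 2.39 in TBX3iso2, where EGFR had 6.24% ± 1.67 and 5.59% ± 2.31. The receptor sum was thus lower in every TBX3 library than in EV, a difference that was not tested, and ERBB2 made up most of it in all libraries.

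ERBB2, the ligandless partner receptor, measured 444 and 423 RPKM in EV, 300.1 and 297 RPKM in TBX3iso1 and 259 and 256 RPKM in TBX3iso2. Every TBX3 library was below both EV libraries, and the TBX3iso2 libraries were the lowest. ERBB2 fell 1.68-fold with TBX3iso2 (log2 fold change -0.75 ± 0.090 SE, limma adjusted p = 0.000522). With TBX3iso1 the difference of -0.54 ± 0.090 had an adjusted p of 0.00246 but stayed under the fold threshold. It passed after quantile normalization (-0.71) and after rescaling to a common total (-0.63). Between the isoforms the difference was -0.21, with a 95% interval from -0.42 to -0.00345 and an adjusted p of 0.156.

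ERBB3, the neuregulin receptor, measured 10.5 and 9.94 RPKM in EV, 5.51 and 5.41 RPKM in TBX3iso1 and 5.57 and 4.98 RPKM in TBX3iso2. It fell 1.86-fold with TBX3iso1 (-0.90 ± 0.092, adjusted p = 0.000269) and 1.93-fold with TBX3iso2 (-0.94 ± 0.092, adjusted p = 0.000208). The isoform lines overlapped, and their difference was -0.05 with a 95% interval from -0.26 to 0.16. Both calls held under all 18 alternatives, with log2 values from -0.98 to -0.72 for TBX3iso1 and from -1.03 to -0.78 for TBX3iso2.

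EGFR, the receptor of all 6 ligands, measured 13.6 and 11.9 RPKM in EV, 24.5 and 16.1 RPKM in TBX3iso1 and 20.6 and 10.7 RPKM in TBX3iso2. Its replicates lay far apart in both TBX3 lines. The second TBX3iso2 library was below both EV libraries and the first above them. EGFR was not called in any comparison: the log2 differences were 0.64 ± 0.30 for TBX3iso1 against EV (adjusted p = 0.117), 0.22 ± 0.30 for TBX3iso2 against EV (adjusted p = 0.569) and -0.41 ± 0.30 between the isoforms (adjusted p = 0.396). EGFR has an annotated transcript of 9905 bases, in the longest of the 10 length classes. Its second library was lower than its first by 0.60 in TBX3iso1 and 0.94 in TBX3iso2 on the log2 scale. The median difference of second from first library in that class was smaller, at -0.18 in TBX3iso1 and -0.28 in TBX3iso2. After centring each library within classes of transcript length, the TBX3iso1 value was 0.90 with an adjusted p of 0.00852, past both thresholds. With a block for the replicate number in limma it was 0.64 with an adjusted p of 0.006, also past both, though nothing ties equal numbers to a shared origin. The TBX3iso1 call was also made without TBX3iso1 replicate 2 (0.94), without TBX3iso2 replicate 1 (0.64) and without TBX3iso2 replicate 2 (0.64). With the 2 lines fitted alone it was made too (0.64, adjusted p = 0.0122). In the other 12 alternatives the TBX3iso1 call was not made. Among them were quantile normalization (0.69, adjusted p = 0.101) and the linear model on unlogged RPKM (0.67, adjusted p = 0.356). Without TBX3iso1 replicate 1 the TBX3iso1 value was 0.33, under the fold threshold. For TBX3iso2 the direction turned without its replicate 1 (-0.25), while without its replicate 2 the value was 0.69 (adjusted p = 0.0267). Between the isoforms the value was -0.88 without TBX3iso2 replicate 1 (adjusted p = 0.0242) and 0.06 without TBX3iso2 replicate 2.

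ERBB4 was listed at 0.00569 and 0 RPKM in EV, 0.0288 and 0.0148 RPKM in TBX3iso1 and 0.0184 and 0.0122 RPKM in TBX3iso2. These values are too low for a statement on direction. With no filter on low values the adjusted p was 0.0888, 0.203 and 0.632 in the 3 comparisons.

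ERBB2 lies on 17q12 at chr17:37844167-37886679 of GRCh37, on the plus strand, between STARD3 and GRB7, genes that are often amplified together with it. Of the 31 genes of the table within 500 kb, ERBB2 included, 21 were tested. TBX3iso1 had 7 of them called lower and TBX3iso2 had 9, with 0 called higher in either, beside 14.1% and 12.3% of all genes called lower. The window was drawn with the values of several of its genes known. GRB7, an adaptor that binds the ERBB2 tail, stood at 182 ± 3.00 RPKM in EV, at 76.7 ± 0.0438 RPKM in TBX3iso1 (-1.25) and at 90.5 ± 2.72 RPKM in TBX3iso2 (-1.01). PNMT, which makes adrenaline, fell by 2.31 and 1.38, and PPP1R1B, a phosphatase inhibitor, fell by 1.81 and 1.68 on the log2 scale. PGAP3, which remodels lipid anchors, fell by 0.66 and 0.85, the former under the fold threshold after median-ratio scaling (-0.58). CACNB1 (-0.61 and -0.83), FBXL20 (-0.82 and -1.10) and THRA (-0.74 and -0.78), farther away, were called lower with both isoforms, and NR1D1 with TBX3iso2 (-0.66). In TBX3iso1 the CACNB1 call was lost without TBX3iso1 replicate 2 (-0.49) and the FBXL20 call without EV replicate 2 (adjusted p = 0.0536).

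Other highly expressed neighbours were not called. STARD3, a cholesterol-binding protein, stood at 262 ± 5.24, 248 ± 3.87 and 235 ± 13.8 RPKM in EV, TBX3iso1 and TBX3iso2, with log2 differences from EV of -0.08 and -0.16. MIEN1 stood at 408 ± 9.76, 361 ± 35.6 and 358 ± 37.9 RPKM (-0.18 and -0.19). MED1, CDK12, TCAP, ORMDL3 and PSMD3 were likewise not called. The neighbours closest to ERBB2 thus had unlike values, from -0.08 for STARD3 to -2.31 for PNMT in TBX3iso1. On the other strand, the annotated span of MIEN1 (chr17:37884749-37886785) lies almost wholly within that of ERBB2. The annotated span of PGAP3 (chr17:37827375-37853050), also on the other strand, overlaps the first part of the ERBB2 span. The sources do not say whether RPKM was computed by strand, and how far these genes share reads was not tested.

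The start regions of ERBB2 and PGAP3, which are transcribed away from each other, are shown because both genes were lower in the TBX3 lines. In the RefSeq promoter table (300 bases each, 250 before and 50 after a start, GRCh38.p14 coordinates, matched here exactly to GRCh37) the listed starts of the pair are 37 bases apart and their windows share 136 bases. The window of ERBB2 follows, with the shared bases in capitals.
ERBB2, chr17:37844097-37844396, plus strand: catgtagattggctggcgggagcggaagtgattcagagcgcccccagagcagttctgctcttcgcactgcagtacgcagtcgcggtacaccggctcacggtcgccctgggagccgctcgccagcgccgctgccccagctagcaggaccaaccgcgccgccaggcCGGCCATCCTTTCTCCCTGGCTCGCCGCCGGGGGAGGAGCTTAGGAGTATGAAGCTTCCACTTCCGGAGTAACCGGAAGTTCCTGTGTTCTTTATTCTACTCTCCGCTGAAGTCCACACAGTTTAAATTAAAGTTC
ERBB2 has further annotated starts downstream, and the annotated span of PGAP3 reaches beyond the start listed here into that of ERBB2. A value per gene does not say which start the reads came from.

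**Figure D2:**
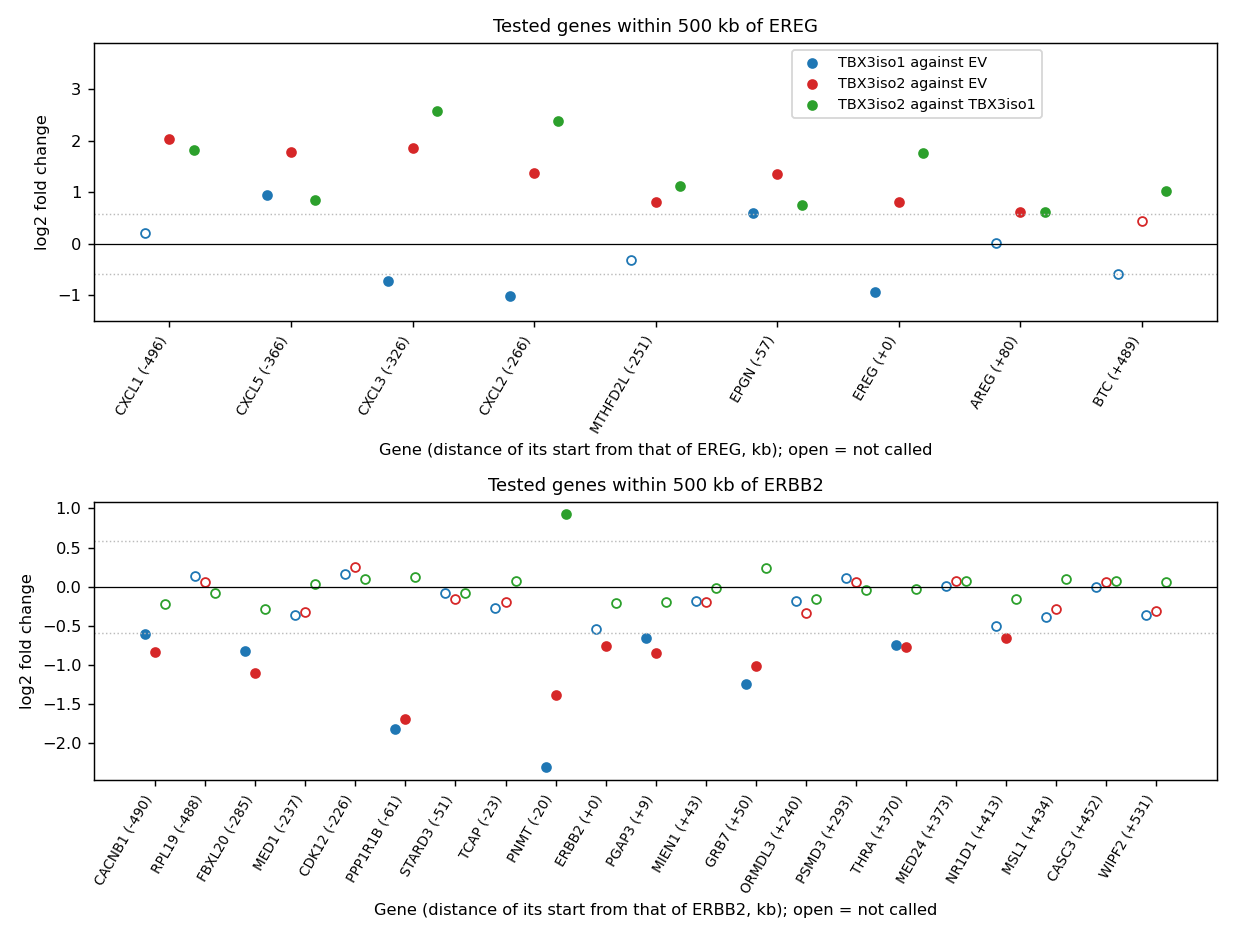
Log2 fold change of every tested gene within 500 kb of EREG (top) and of ERBB2 (bottom), in order of the distance of its start, in kb, from the start of EREG or ERBB2. Filled circles are called, open ones are not, and the dotted lines mark a fold of 1.5. All 9 genes around EREG are called higher in TBX3iso2 than in TBX3iso1 (green), and around ERBB2 the called differences from EV are all negative.

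Among the ligands, AREG and EREG were the most abundant members in EV, at 37.1 ± 1.89 and 36.8 ± 0.201 RPKM with overlapping libraries, followed by TGFA at 14.4 ± 0.947, HBEGF at 8.14 ± 0.473, BTC at 3.62 ± 0.115 and EGF at 1.56 ± 0.106 RPKM. In TBX3iso1 the order was AREG, TGFA, EREG, HBEGF, BTC and EGF, and no ligand overlapped the next. In TBX3iso2 EREG came first and overlapped AREG, followed by TGFA, HBEGF, BTC and EGF. The 6 ligands summed to 102 ± 1.63 RPKM in EV, 94.4 ± 5.17 RPKM in TBX3iso1 and 167 ± 17.3 RPKM in TBX3iso2. With EPGN, a further EGFR ligand, the sums were 140.5 ± 0.711, 153 ± 5.23 and 267 ± 34.7 RPKM. EREG had 36.2% ± 0.383 of the sum of 6 in EV and 20.3% ± 1.54 in TBX3iso1, where TGFA had 24.1% ± 1.83 against 14.1% ± 1.16 in EV. In TBX3iso2 EREG had 39.0% ± 4.60 and AREG 34.2% ± 2.02. The shares are a description and were not tested.

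**Figure D3:**
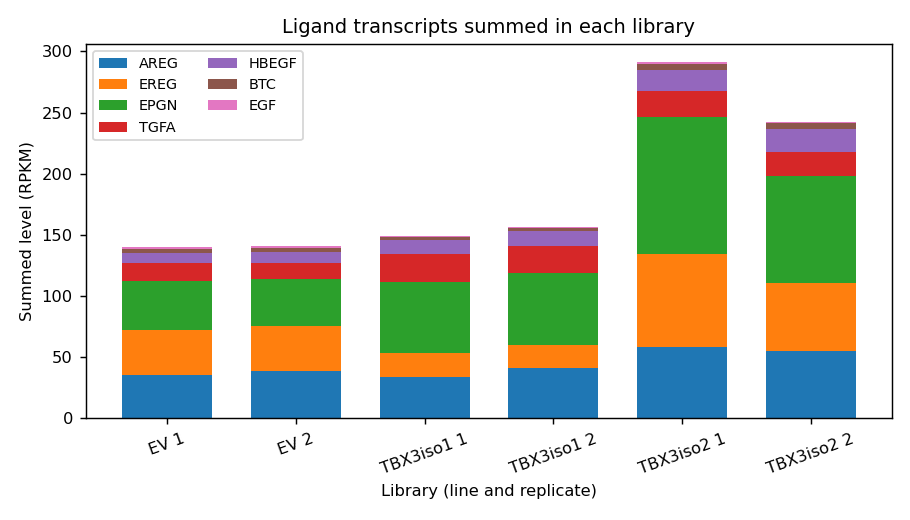
Summed level in RPKM of the 6 ligands and EPGN in each library, stacked by gene. The EV and TBX3iso1 libraries sum to between 140.0 and 157 RPKM and the TBX3iso2 libraries to 242 and 291 RPKM. The largest blocks are EPGN, EREG and AREG in EV and TBX3iso2, and EPGN, AREG and TGFA in TBX3iso1.

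EREG (epiregulin), which binds EGFR and ERBB4, was the only member called in opposite directions in the isoform lines. It measured 36.7 and 36.96 RPKM in EV, 19.4 and 18.8 RPKM in TBX3iso1 and 75.7 and 55.3 RPKM in TBX3iso2. No line overlapped another, with TBX3iso1 below and TBX3iso2 above EV. The change was -0.94 ± 0.13 with TBX3iso1 (1.92-fold lower, adjusted p = 0.00116) and 0.81 ± 0.13 with TBX3iso2 (1.75-fold higher, adjusted p = 0.00227). Tested directly, EREG was 3.37-fold higher in TBX3iso2 than in TBX3iso1 (1.75 ± 0.13, adjusted p = 0.000362). Without TBX3iso2 replicate 1 the rise with TBX3iso2 was 0.58, just under the fold threshold, with an adjusted p of 0.000812. On unlogged RPKM in a linear model without moderation the 3 adjusted p were 0.214, 0.0988 and 0.101.

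AREG measured 35.8 and 38.4 RPKM in EV, 33.7 and 41.2 RPKM in TBX3iso1 and 58.7 and 55.1 RPKM in TBX3iso2. The TBX3iso1 libraries lay on either side of EV and the TBX3iso2 libraries above both lines. AREG was 1.53-fold higher in TBX3iso2 than in EV (0.62 ± 0.10, adjusted p = 0.00258) and 1.52-fold higher than in TBX3iso1 (0.61 ± 0.10, adjusted p = 0.00952), while TBX3iso1 differed from EV by 0.01 (95% interval from -0.24 to 0.25), a value of -0.042 after quantile normalization and -0.079 after rescaling. Both calls sit at the fold threshold. The call against EV was lost without EV replicate 1 (0.56) and without TBX3iso2 replicate 1 (0.57), after quantile normalization (0.54), after rescaling to a common total (0.53) and after length centring (0.56). The call against TBX3iso1 was lost without TBX3iso1 replicate 1 (0.46), without TBX3iso2 replicate 1 (0.56), after median-ratio scaling (0.56), quantile normalization (0.58) and length centring (0.52), with no filter (adjusted p = 0.0501) and on unlogged RPKM (adjusted p = 0.103). GRCh37 also holds AREGB, a near copy of AREG that contains 95.7% of the 51-base stretches of the longest AREG transcript. AREGB has no line in the table, and reads with up to 10 alignments were kept, so the AREG level is uncertain.

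BTC (betacellulin), a ligand of EGFR and ERBB4, measured 3.53 and 3.70 RPKM in EV, 2.44 and 2.32 RPKM in TBX3iso1 and 4.93 and 4.91 RPKM in TBX3iso2. The 3 lines did not overlap. BTC was 2.03-fold higher in TBX3iso2 than in TBX3iso1 (1.02 ± 0.096, adjusted p = 0.000922), a call that held under all 18 alternatives (0.81 to 1.05). Against EV it stayed under the fold threshold on both sides, at -0.58 ± 0.096 for TBX3iso1 (adjusted p = 0.00229) and 0.43 ± 0.096 for TBX3iso2 (adjusted p = 0.0083). The TBX3iso1 value lies at the threshold and passed it in 5 of 18 alternatives, among them without EV replicate 1 and without TBX3iso1 replicate 1 (both -0.62).

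HBEGF, the heparin-binding ligand of EGFR and ERBB4, measured 7.80 and 8.47 RPKM in EV, 11.1 and 12.3 RPKM in TBX3iso1 and 17.5 and 18.2 RPKM in TBX3iso2. The levels formed 3 separate steps. HBEGF was 2.18-fold higher in TBX3iso2 than in EV (1.12 ± 0.087, adjusted p = 7.33e-05), the largest rise of a member over EV, and this held under all 18 alternatives (1.04 to 1.18). The TBX3iso1 value was 0.52 ± 0.087 (adjusted p = 0.00251), under the fold threshold. It passed without TBX3iso1 replicate 1 (0.59), after median-ratio scaling (0.60) and after quantile normalization (0.62). The isoforms differed by 0.61 ± 0.087 (adjusted p = 0.00489), a call lost without TBX3iso1 replicate 1 (0.53), without TBX3iso2 replicate 2 (0.58), after median-ratio scaling (0.56), quantile normalization (0.53) and length centring (0.56), with 1 RPKM added (0.57) and on unlogged RPKM (adjusted p = 0.0563).

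TGFA, a high-affinity EGFR ligand, measured 15.0 and 13.7 RPKM in EV, 23.1 and 22.4 RPKM in TBX3iso1 and 20.7 and 19.9 RPKM in TBX3iso2. It was the member called higher with TBX3iso1 (1.58-fold, 0.66 ± 0.077, adjusted p = 0.000496), with 0.57 after rescaling to a common total, under the fold threshold. With TBX3iso2 the rise of 0.50 ± 0.077 (adjusted p = 0.00174) was under the fold threshold. The isoform lines did not overlap but differed by only -0.16, with a 95% interval from -0.34 to 0.02. EGF itself was the lowest ligand, at 1.64 and 1.49 RPKM in EV, 1.02 and 1.02 RPKM in TBX3iso1 and 1.58 and 1.26 RPKM in TBX3iso2. Its difference in TBX3iso1 was -0.57 ± 0.15 (adjusted p = 0.0174), short of the fold needed, which it reached with 0.01 RPKM added (-0.61) and after rescaling (-0.65). Its other differences were -0.14 for TBX3iso2 against EV, which turned to 0.037 after quantile normalization, 0.030 after length centring and 0.015 without TBX3iso2 replicate 2, and 0.43 between the isoforms.

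**Figure D4:**
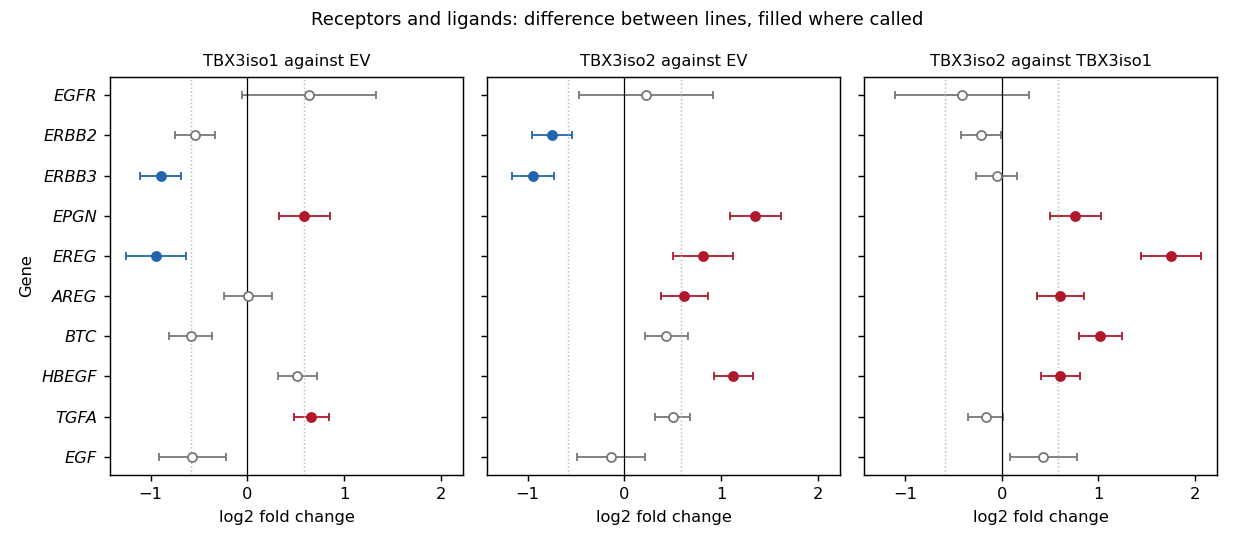
Log2 fold change with its 95% interval for the 9 members tested and EPGN in the 3 comparisons, from limma over all genes tested. Filled symbols are called (red higher, blue lower), open grey ones are not, and dotted lines mark a fold of 1.5. EREG lies at -0.94 with TBX3iso1 and at 0.81 with TBX3iso2, ERBB3 lies near -0.9 in both, and EGFR has the widest intervals.

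EREG, AREG, BTC and EPGN lie close together on 4q13. EREG is at chr4:75230862-75254466, AREG at chr4:75310853-75320722, BTC at chr4:75669969-75719733 (minus strand) and EPGN at chr4:75174187-75182506 of GRCh37. EPGN (epigen), a low-affinity EGFR ligand, measured 39.5 and 38.2 RPKM in EV, 58.5 and 58.6 RPKM in TBX3iso1 and 112 and 87.8 RPKM in TBX3iso2. It was higher than EV with TBX3iso1 (0.59 ± 0.11, adjusted p = 0.00472) and TBX3iso2 (1.35 ± 0.11, adjusted p = 0.000113), and higher in TBX3iso2 than in TBX3iso1 (0.76 ± 0.11, adjusted p = 0.00577). The first of these lies at the fold threshold and was lost without EV replicate 2 (0.57). The last was lost without TBX3iso2 replicate 1 (0.58). In TBX3iso1 the neighbours therefore went different ways, EPGN up and EREG down, with AREG at 0.01.

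The other tested genes within 500 kb of EREG were the chemokine genes CXCL1, CXCL2, CXCL3 and CXCL5, which attract neutrophils, and MTHFD2L, a mitochondrial folate enzyme. They were named by position, after the values of the ligands had been seen. Of the 11 genes of the table in this window, 9 were tested, and all 9 were called higher in TBX3iso2 than in TBX3iso1, beside 3.47% of all genes tested. These 9 include EREG, AREG, BTC and EPGN, whose values had been seen before the window was drawn. The differences ran from 0.61 for AREG to 2.58 for CXCL3, with a median of 1.11. The count was 8 without TBX3iso1 replicate 1 and 7 without TBX3iso2 replicate 1. On unlogged RPKM it was 2. AREG also lost this call after median-ratio scaling, quantile normalization and length centring, so the count was below 9 there. Against EV, 8 of 9 were higher with TBX3iso2, all but BTC, beside 8.94% of all genes, while with TBX3iso1 2 were higher (EPGN and CXCL5) and 3 lower (EREG, CXCL2 and CXCL3), beside 7.46% and 14.1%. Without EV replicate 2 the TBX3iso1 count was 3 in all. CXCL2 had line means of 7.06 RPKM in EV, 3.42 RPKM in TBX3iso1 and 18.5 RPKM in TBX3iso2. CXCL5 had 39.6, 76.2 and 137 RPKM. The CXCL3 fall was lost without EV replicate 2 (-0.47) and without TBX3iso1 replicate 1 (-0.48).

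Of the 10 members, 9 had an entry in the RefSeq promoter table, and ERBB3 is named only. The windows of the 4 ligand genes on 4q13 are shown because these genes are neighbours and were all higher in TBX3iso2 than in TBX3iso1. Capitals mark TATAAA (the TATA box core), GGTGTG (the core of the T-box motif that T-box factors bind) and CAGGTG (an E-box), each searched on both strands. Positions count from the start, whose first transcribed base is 1, and give the first base of the match.
EPGN, chr4:75173937-75174236, plus strand: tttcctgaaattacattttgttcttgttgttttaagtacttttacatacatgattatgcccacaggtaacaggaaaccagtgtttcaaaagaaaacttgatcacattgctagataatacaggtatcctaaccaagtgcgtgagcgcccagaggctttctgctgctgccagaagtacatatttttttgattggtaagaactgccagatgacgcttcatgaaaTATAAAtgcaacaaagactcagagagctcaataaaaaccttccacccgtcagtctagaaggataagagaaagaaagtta
EREG, chr4:75230612-75230911, plus strand: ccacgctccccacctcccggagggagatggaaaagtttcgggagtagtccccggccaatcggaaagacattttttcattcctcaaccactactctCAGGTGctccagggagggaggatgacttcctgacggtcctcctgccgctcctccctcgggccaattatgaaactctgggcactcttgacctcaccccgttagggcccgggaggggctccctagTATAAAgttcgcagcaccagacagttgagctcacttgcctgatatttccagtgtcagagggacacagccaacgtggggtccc
AREG, chr4:75310603-75310902, plus strand: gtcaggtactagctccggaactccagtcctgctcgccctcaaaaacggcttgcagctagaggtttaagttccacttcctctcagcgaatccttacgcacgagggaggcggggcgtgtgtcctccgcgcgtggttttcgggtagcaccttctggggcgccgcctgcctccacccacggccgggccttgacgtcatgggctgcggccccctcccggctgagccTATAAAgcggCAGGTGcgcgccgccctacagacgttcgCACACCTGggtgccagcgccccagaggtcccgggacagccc
BTC, chr4:75719684-75719983, minus strand: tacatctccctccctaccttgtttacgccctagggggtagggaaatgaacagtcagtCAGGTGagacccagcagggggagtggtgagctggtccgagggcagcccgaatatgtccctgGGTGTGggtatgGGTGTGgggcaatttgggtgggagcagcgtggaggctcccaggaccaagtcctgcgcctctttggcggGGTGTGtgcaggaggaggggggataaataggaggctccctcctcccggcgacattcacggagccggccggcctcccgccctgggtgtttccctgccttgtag
TATAAA began at -29 in EPGN, -32 in EREG and -29 in AREG, on the strand of the gene, and was not found in the BTC window. It occurs somewhere in 11.5% of the 35116 windows of the table, and between 40 and 20 bases before the start on the gene's strand in 2.3%. BTC held GGTGTG at -132, -120 and -52, and AREG at 10 on the opposite strand, overlapping a CAGGTG at 12. GGTGTG occurs in 16.8% of all windows and CAGGTG in 20.6%. The AREG window matched GRCh37 at 2 places, since AREGB carries the same 300 bases. A match is a run of letters, and no binding was measured here.

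The pathway around the receptors was described with lists of 143 genes that exclude the members, of which 142 were in the table and 128 were tested. In TBX3iso1 against EV 16 of them were called higher and 22 lower, beside 21.5% of all genes. For TBX3iso2 the counts were 17 and 20, beside 21.2%. Between the isoforms 7 were higher and 7 lower in TBX3iso2, beside 6.29%. The median log2 fold change of the 128 was -0.17, -0.13 and 0.03 in the 3 comparisons, against -0.05, -0.00 and 0.05 over all genes tested. Over all genes, that median ran from 0.09 in the shortest to -0.22 in the longest length class for TBX3iso1 against EV. For TBX3iso2 against EV it ran from 0.11 to -0.17. After length centring, 19 pathway genes were called higher and 15 lower with TBX3iso1, and 17 and 17 with TBX3iso2. The part of transcript length in the pathway medians was not tested.

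Of the neuregulins, which bind ERBB3 and ERBB4, NRG1 and NRG4 were tested. Together with EPGN, 1 of 3 was higher with TBX3iso1, beside 21.5% of all genes called. For TBX3iso2 2 were higher and 1 lower, beside 21.2%. NRG1 was 0.410 ± 0.0279 RPKM in EV, 0.520 ± 0.0286 RPKM in TBX3iso1 and 0.742 ± 0.0157 RPKM in TBX3iso2, and was called higher with TBX3iso2 (0.72, adjusted p = 0.00931). Without EV replicate 2 that value was 0.67 with an adjusted p of 0.066. NRG4, an ERBB4 ligand, was 0.959 ± 0.0374, 0.741 ± 0.0151 and 0.318 ± 0.0396 RPKM and was called lower with TBX3iso2 (-1.34, adjusted p = 0.000552). NRG1, NRG2 and NRG4 were thus below 1 RPKM in all lines, and NRG3 was not in the table.

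Of 12 genes for ligand shedding and trafficking, 4 rose and 1 fell with TBX3iso1 (41.7% called, beside 21.5% of all genes). With TBX3iso2 0 rose and 1 fell (8.33%, beside 21.2%). ADAM17, the main sheddase of AREG, EREG, HBEGF and TGFA, measured 26.7 and 25.2 RPKM in EV, 24.9 and 21.7 RPKM in TBX3iso1 and 20.2 and 14.8 RPKM in TBX3iso2. It was not called, although every TBX3 library was below both EV libraries and the TBX3iso2 difference from EV lay at the fold threshold. TIMP3, an inhibitor of ADAM17, went from 0.0430 ± 0.00910 RPKM in EV to 1.44 ± 0.0540 RPKM in TBX3iso1 (3.43, adjusted p = 2.7e-05) and was 0.0804 ± 0.0134 RPKM in TBX3iso2 (0.33). Since TIMP3 in EV lies under the 0.1 RPKM added before the log, that fold depends on the addition. The other genes that rose with TBX3iso1 code for ADAM proteases. ADAM8 went from 1.40 ± 0.00897 RPKM in EV to 2.48 ± 0.445 RPKM in TBX3iso1 (0.77, adjusted p = 0.00432). As line means, ADAM12 went from 3.05 to 5.18 RPKM and ADAM19 from 8.17 to 12.6 RPKM. In TBX3iso2 the means of ADAM8, ADAM12 and ADAM19 were 1.46, 2.97 and 8.54 RPKM. BACE1 fell with both isoforms (-0.70 and -0.77), the former lost without EV replicate 1 (-0.65, adjusted p = 0.0581).

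Of 21 receptor-level inhibitors, 3 rose and 3 fell with TBX3iso1 (28.6% called, beside 21.5% of all genes). With TBX3iso2 2 rose and 2 fell (19%, beside 21.2%). ERRFI1 (MIG6), a feedback inhibitor that binds the EGFR and ERBB2 kinases, measured 78.6 and 88.6 RPKM in EV, 40.7 and 42.4 RPKM in TBX3iso1 and 43.5 and 35.2 RPKM in TBX3iso2. All TBX3 libraries were below EV. It fell by 1.00 and 1.09 on the log2 scale (adjusted p = 0.000401 and 0.000261). CBLB, a ubiquitin ligase of activated receptors, fell by 0.81 and 0.99, while SH3KBP1 (CIN85), which joins CBL to endocytosis, rose by 1.09 and 0.90. LRIG1, a membrane inhibitor of ERBB receptors, rose with TBX3iso1 (0.85, adjusted p = 0.00197) and was at -0.24 with TBX3iso2. SOCS2, a cytokine signalling inhibitor, rose with TBX3iso2 (1.38, adjusted p = 0.000357) and with TBX3iso1 (0.64), the latter lost without EV replicate 2 (0.44).

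Of 18 tested MAPK feedback inhibitors, 2 rose and 4 fell with TBX3iso1 (33.3% called, beside 21.5% of all genes). With TBX3iso2 3 rose and 5 fell (44.4%, beside 21.2%). The MAPK phosphatase DUSP4 measured 17.4 and 17.9 RPKM in EV, 7.13 and 6.91 RPKM in TBX3iso1 and 6.71 and 6.81 RPKM in TBX3iso2, a fall of 1.32 and 1.37 on the log2 scale (adjusted p = 2.15e-05 and 1.76e-05). DUSP10, which acts on JNK and p38, fell by 1.24 and 1.27. DUSP7 rose by 0.93 and 0.98, and DUSP2 by 2.73 and 1.69 from 0.137 ± 0.0229 RPKM in EV. The list therefore held called genes in both directions in each line.

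Of 20 tested adaptors and proximal effectors, 2 rose and 3 fell with TBX3iso1 (25% called, beside 21.5% of all genes). With TBX3iso2 3 rose and 3 fell (30%, beside 21.2%). GRB7, described above, and the RAS exchange factor SOS2 (-0.99 and -0.90) fell with both. NCK2 (0.94 and 0.89) and GRB10 (0.70 and 0.76), adaptors of receptor kinases, were called higher with both, and GRB14 with TBX3iso2 (1.13). In the RAS-MAPK core 3 of 14 genes fell with each isoform and 0 rose, and this 21.4% called is close to the 21.5% and 21.2% of all genes. They included MAPK3 (ERK1), from 24.6 ± 1.77 RPKM in EV to 14.9 ± 0.0844 and 15.2 ± 1.03 RPKM, and the ERK target kinase RPS6KA2 (-0.70 and -0.85). The third, BRAF, was at -0.65 and -0.73 and lost both calls without EV replicate 1 (adjusted p = 0.199 and 0.15) and without EV replicate 2 (0.103 and 0.0782). The TBX3iso1 call was also lost without TBX3iso1 replicate 2 and the TBX3iso2 call without TBX3iso2 replicate 2 (adjusted p = 0.15 and 0.0897). In the PI3K-AKT core 0 rose and 3 fell of 17 with TBX3iso1 and 1 rose and 2 fell with TBX3iso2, 17.6% called in each and below the share of all genes. The gene called higher was PIK3CD, a catalytic PI3K subunit (0.65, adjusted p = 0.0411), from 0.388 ± 0.0772 RPKM in EV to 0.670 ± 0.159 RPKM. Its call was lost without EV replicate 1, EV replicate 2 or TBX3iso2 replicate 1 (adjusted p = 0.0696, 0.218 and 0.174). RICTOR, a subunit of mTOR complex 2, was at -0.74 and -1.17 and TSC1 at -0.75 and -0.65. RICTOR in TBX3iso1 lost its call without EV replicate 1, EV replicate 2 or TBX3iso1 replicate 2 (adjusted p = 0.067, 0.103 and 0.0533), and TSC1 in TBX3iso2 without EV replicate 2 (adjusted p = 0.0678) or TBX3iso2 replicate 2 (-0.55). After length centring the RICTOR and TSC1 values in TBX3iso1 and the TSC1 value in TBX3iso2 were under the fold threshold.

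On a list of genes that ERK signalling is known to induce 13 were tested. Of these, 4 rose and 2 fell with TBX3iso1, and 6 rose and 0 fell with TBX3iso2. The 46.2% called in each stood beside 21.5% and 21.2% of all genes. This list leaves out the MAPK feedback inhibitors above, of which 3 rose and 5 fell with TBX3iso2. FOSL1, an AP-1 subunit, went from 160.3 ± 3.39 RPKM in EV to 382 ± 15.6 RPKM in TBX3iso2 (1.25, adjusted p = 4.73e-05), and its rise in TBX3iso1 (0.60) was 0.57 without EV replicate 2. PLAUR, the urokinase receptor, rose with both isoforms (1.30 and 1.04), as did the ETS factor ETV1 (1.04 and 0.77). The immediate-early factors FOS and EGR1 were called lower with TBX3iso1 only (-1.91, adjusted p = 0.000524, and -1.16, adjusted p = 0.00254), with -0.62 and -0.49 in TBX3iso2. FOS differed between the isoforms (1.28, adjusted p = 0.0106), whereas for EGR1 that difference was 0.67 with an adjusted p of 0.0589. Genes of this list thus moved in both directions in TBX3iso1.

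**Figure D5:**
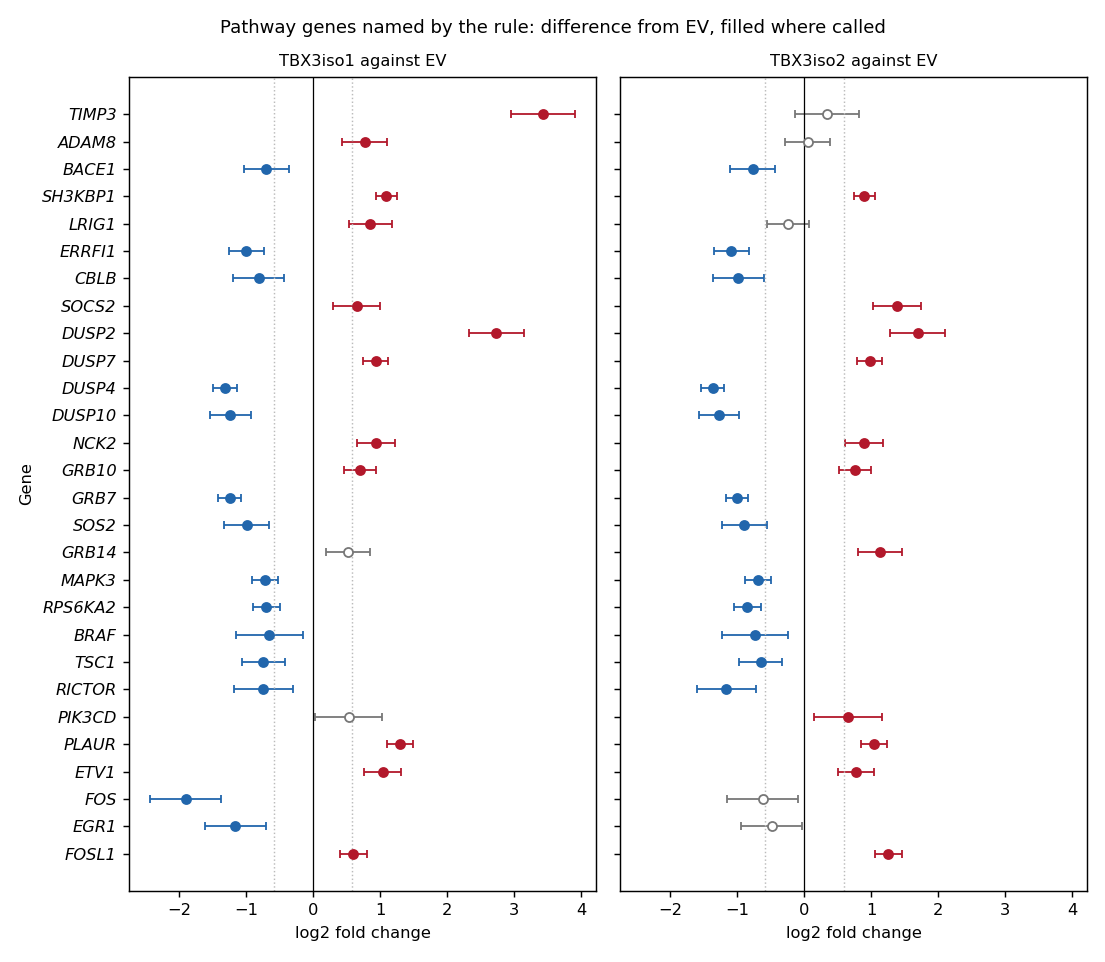
Log2 fold change against EV with its 95% interval for the pathway genes named by the rule (ligand shedding, inhibitors, adaptors, RAS-MAPK, PI3K-AKT and MAPK output lists, from top to bottom). Filled symbols are called, open grey ones are not, and dotted lines mark a fold of 1.5. ERRFI1, DUSP4 and GRB7 lie below -1 in both panels, and TIMP3 and FOS lie far from 0 in the TBX3iso1 panel.

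Of 14 tested receptor tyrosine kinases outside the family, 1 rose and 3 fell with TBX3iso1 (28.6% called, beside 21.5% of all genes). With TBX3iso2 1 rose and 4 fell (35.7%, beside 21.2%). TYRO3 rose with TBX3iso1 (0.69) and AXL with TBX3iso2 (0.63). PDGFRA went from 8.03 ± 0.0712 RPKM in EV to 3.46 ± 0.250 RPKM in TBX3iso1 and 0.0122 ± 0.00152 RPKM in TBX3iso2, the last under the 0.1 RPKM added before the log. INSR, the insulin receptor, fell from 1.60 ± 0.00245 RPKM to 0.545 ± 0.0601 RPKM in TBX3iso2 (-1.40), and EPHA1 was called lower with TBX3iso1 (-0.63, adjusted p = 0.0024), with -0.55 without EV replicate 1. The INSR difference in TBX3iso1 (-0.59) lost its call without EV replicate 1, EV replicate 2 or TBX3iso1 replicate 1 (adjusted p = 0.0819, 0.0841 and 0.0637).

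The genes whose pattern over the 6 libraries was most like that of a member were found by the root mean square difference of centred log2 values. For EREG these were USP54 (0.102), SFRP1 (0.121) and RRAD (0.157), for HBEGF TRNP1 (0.0650), GTPBP4 (0.0709) and GRB14 (0.0741), and for ERBB2 FAM234A (0.0341) and PLK2 (0.0360). GRB14 is itself an adaptor on the pathway lists.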

How the data were processed

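RNA-Seq libraries of the 3 lines were stranded mRNA libraries read paired-end at 51 bases. Per the labels and methods, the authors aligned reads to hg19 with TopHat, keeping up to 10 alignments per read, and deposited RPKM values on a linear scale made in Partek. Software versions and the annotation are not given in the sources used here. The table also lists the alignments of each library. RPKM holds no counts, so depth sets no interval for a gene.

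RPKM plus 0.1 was taken to log2, and genes averaging 0.5 RPKM or more (12805) were fitted with limma 3.58.1 in R 4.3.3, with 1 mean per line, a variance trend and Benjamini-Hochberg adjustment over all genes tested. The study tested RPKM by analysis of variance, with no log scale stated, and a linear model on unlogged RPKM is among the 18 alternatives. A call needed a fold over 1.5 besides an adjusted p under 0.05. The model was also run on simulated log2 values with independent spread. They held no shift by transcript length or replicate number, so that run cannot speak to such shifts. SE and intervals are moderated.

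Members and lists were chosen with earlier results of these data known. Named genes are all members, the ERBB2 neighbours, and per list and isoform up to 2 called genes with the largest rise and up to 2 with the largest fall. Genes around EREG and ERBB2 and length centring were added after values had been seen, and ADAM17 was named for its role. ADAM12 and ADAM19 were named to complete the shedding genes that rose with TBX3iso1. Positions are GRCh37. Promoter sequences are from RefSeq (GRCh38.p14). For EREG, HBEGF and ERBB2 the 3 genes with the most similar pattern were sought, and 1 of those for ERBB2 is not reported here. Protein sequences were not used here.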

Additional observations from a re-analysis of the deposited data

Results flagged for a closer look

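These genes differed between the isoform lines in the direct test (limma over all genes tested, 6.29% of which were called), with values given as log2 of TBX3iso2 over TBX3iso1. Among the members they were EREG (1.75), BTC (1.02), AREG (0.61) and HBEGF (0.61), all higher in TBX3iso2, in 2 of 2 libraries each. Of these, AREG and HBEGF lie at the fold threshold.

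Among the other genes, EPGN (0.76), SOCS2 (0.74), GRB14 (0.61), FOS (1.28), FOSL1 (0.66) and PNMT (0.92) were higher in TBX3iso2, and NRG4 (-1.01), ADAM8 (-0.72), TIMP3 (-3.09), LRIG1 (-1.09), DUSP2 (-1.04), INSR (-0.82) and PDGFRA (-4.98) were lower. TIMP3 and PDGFRA in TBX3iso2 lie under the 0.1 RPKM added before the log, so the sizes of their differences depend on it. GRB14 lost the call without any 1 library other than TBX3iso2 replicate 1 (0.52 to 0.63), SOCS2 without either TBX3iso1 library (0.70 and 0.78), ADAM8 without either EV library (adjusted p = 0.0523 and 0.0526) or TBX3iso1 replicate 1 (-0.55), DUSP2 and INSR without TBX3iso1 replicate 2 (adjusted p = 0.0503 and 0.0558), and EPGN without TBX3iso2 replicate 1 (0.58). With 2 libraries a line, no test for a single deviating library was possible.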

How the results depend on the processing

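Each count and value was recomputed under 18 alternatives. Where a library was left out, the lone library of that line was assumed to vary like the others. The member count in TBX3iso1 was 5 in place of 3 with 0.01 RPKM added, after quantile normalization and after rescaling to a common total, and 3 to 5 without 1 library (5 without TBX3iso1 replicate 1). In TBX3iso2 it was 3 to 6 without 1 library (3 without TBX3iso2 replicate 1), against 5. Between the isoforms it was 2 in place of 4 after median-ratio scaling, quantile normalization and length centring, 1 on unlogged RPKM, and 2 to 4 without 1 library (2 without TBX3iso1 replicate 1). The pathway genes called between the isoforms were 8 with 1 RPKM added, 9 with no filter and 4 on unlogged RPKM, against 14, and 11 to 17 without 1 library. All genes called were 1812 in TBX3iso1 with 1 RPKM added, against 2757, and between the isoforms 419 with 1 RPKM added, 504 with a minimum of 2 RPKM and 186 on unlogged RPKM, against 805. Around EREG the count in TBX3iso1 was 3 with 1 RPKM added and after quantile normalization and 2 on unlogged RPKM, against 5, and 3 to 6 without 1 library (3 without EV replicate 2). Between the isoforms it was 2 on unlogged RPKM, against 9. Around ERBB2 it was 11 with no filter in TBX3iso1, against 7, and 0 on unlogged RPKM between the isoforms, against 1. The cause of these shifts was not tested.

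Some directions turned. The direction of EGFR in TBX3iso2, against EV and against TBX3iso1, rested on single libraries, and the other values that turned were small. Without 1 library EGFR ran from -0.25 to 0.69 in TBX3iso2 and from -0.88 to 0.055 between the isoforms, ERBB3 from -0.13 to 0.030 between the isoforms, AREG from -0.14 to 0.15 in TBX3iso1 and EGF from -0.29 to 0.015 in TBX3iso2. AREG in TBX3iso1 was -0.042 after quantile normalization and -0.079 after rescaling, and EGF in TBX3iso2 was 0.037 after quantile normalization and 0.030 after length centring. Of the member values under alternatives, 429 kept direction and call, 24 lost the call, 20 gained it and 10 turned. Of 1756 values for 99 calls of other named genes, 1610 kept the call, 146 lost it and 0 turned.

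The replicate numbers are shared between lines but nothing ties equal numbers to a shared origin. Deviations of equal numbers correlated across genes at 0.22 (EV with TBX3iso1), 0.11 (EV with TBX3iso2) and 0.50 (between the isoforms). With a block for the replicate number, members called were 4, 5 and 4, pathway genes 38, 38 and 16, and all genes 2838, 2795 and 900 in the 3 comparisons. EGFR in TBX3iso1 was then called (0.64, adjusted p = 0.006).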
